A study of Mus musculus with 17 samples.

Results

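The right ventricle (RV) of the mouse heart was compared with the left ventricle (LV) on the day of birth, postnatal day 0 (P0). The comparison took the 3 libraries titled RVP0 and the 3 titled LVP0, which are 6 of the 17 libraries of the study, and all 23940 rows of their tables, of which 11079 held enough signal to be tested. Both groups are male C57Bl/6 newborns with no treatment, and the labels place P0 before closure of the ductus arteriosus, the fetal vessel between the pulmonary artery and the aorta. The other 11 libraries, from RV and LV at P3 and P7, entered the fit for a common estimate of the spread and serve below as later time points. Per the labels, total RNA went into strand-specific, paired-end libraries made from biological replicates, and how many animals gave RNA to each library is not stated there.

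Before birth the RV pumps most of its output through the ductus into the aorta, so both ventricles work against a similar pressure and have walls of similar thickness. After birth the ductus closes, the resistance of the lungs falls, and the LV takes over the high-pressure circulation while the RV serves the lungs. The chambers also differ in origin, since the LV forms largely from the first heart field and the RV largely from the second. Long noncoding RNAs (lncRNAs) are transcripts without a long reading frame, and several are known to act in heart development, many of them on genes near their own locus.

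Values are FPKM, fragments per kilobase of feature length scaled to depth, a unit inferred from the deposited values. Depth estimated from those values was 15.2 to 20.5 M fragments in the 6 libraries, beside 13.8 to 20.5 M in all 17, and 37.8% to 43.4% of rows were listed at 0. The depth estimate used the span between the listed positions and was sought within a fixed range. That range limits how far libraries could differ in it. RV libraries listed 9749.7 ± 671.8 rows at 0 and LV libraries 9674 ± 592.9 (SD, n = 3 each; two-sided exact permutation p = 0.9, where 0.1 is the smallest p that 3 against 3 can give). Replicate 3 of each ventricle stood apart from the other libraries of its group on a mitochondrial feature described below, so this split is balanced between the ventricles at P0. The files name features by NONCODE transcript ID or by assembled-transcript ID (TCONS) and pair no ID with a gene name. Positions, printed as the files give them, are taken to be of mouse build mm9, and the nuclear genes there were not analysed here. The ventricle labels could therefore not be checked against marker genes. The 11 rows of the Y chromosome summed to 0.941 to 2.9 FPKM in these libraries, all labelled male.

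No noncoding feature passed the test between the ventricles at P0. Of the 11079 features, 0 (0%) had an adjusted p under 0.05 (limma on log2(FPKM + 0.1), Benjamini-Hochberg adjusted over all features, two-sided), and the smallest adjusted p was 0.716. Before adjustment, 587 features (5.3%) had a p under 0.05, 246 of them higher in RV (2.22%) and 341 lower in RV (3.08%). After median scaling 305 were higher and 326 lower, and without LV replicate 3 the counts were 266 and 266. At the later ages the same test called 1 feature (0.00903%) at P3 and 1 (0.00903%) at P7. Before adjustment, 651 features (5.88%) at P3 and 495 (4.47%) at P7 were under 0.05. In bulk tissue such as this, fewer cells of a type and less RNA per cell cannot be told apart.

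Libraries of different ventricles were about as close to each other at P0 as RV replicates were, while LV replicates were by median somewhat closer. The median correlation was 0.905 for RV with LV, 0.894 within RV and 0.918 within LV. Across the 11079 features, the correlation of log2 values was 0.895 to 0.913 over the 9 pairs of an RV with an LV library, 0.891 to 0.909 over the 3 pairs of RV libraries and 0.909 to 0.92 over the 3 pairs of LV libraries. For the 1658 features with a mean of at least 1 FPKM, these ranges were 0.916 to 0.947, 0.916 to 0.939 and 0.93 to 0.945. The correlations are across features, which are not independent replicates. The RV mean was higher for 43.6% of features and lower for 55.6%. The median difference over all features was -0.05 (RV minus LV, log2), and 90% of the features lay between -0.71 and 0.65.

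How firmly a ventricle difference can be bounded depended on the level of the feature. Nuclear features here are all those not placed on the mitochondrial chromosome, so features without a position are counted among them. Of the 174 nuclear features at 10 FPKM or more, 160 (92%) had a 95% interval for the RV minus LV difference that lay wholly within a 2-fold change in either direction. Their differences were between -0.80 and 0.66 on the log2 scale, 55 of the 174 were higher in RV, and none was beyond 2-fold. Between 1 and 10 FPKM, 1130 of 1484 features (76.1%) had such an interval, and between 0.1 and 1 FPKM 2119 of 6074 (34.9%). Under 0.1 FPKM it was 1483 of 3339 (44.4%). The 2-fold bound is set on log2(FPKM + 0.1), where the added 0.1 shrinks differences of low features. At low levels it therefore allows more than a 2-fold change in FPKM. Even so, for most features under 1 FPKM these libraries did not bound the difference within 2-fold.

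**Figure D1:**
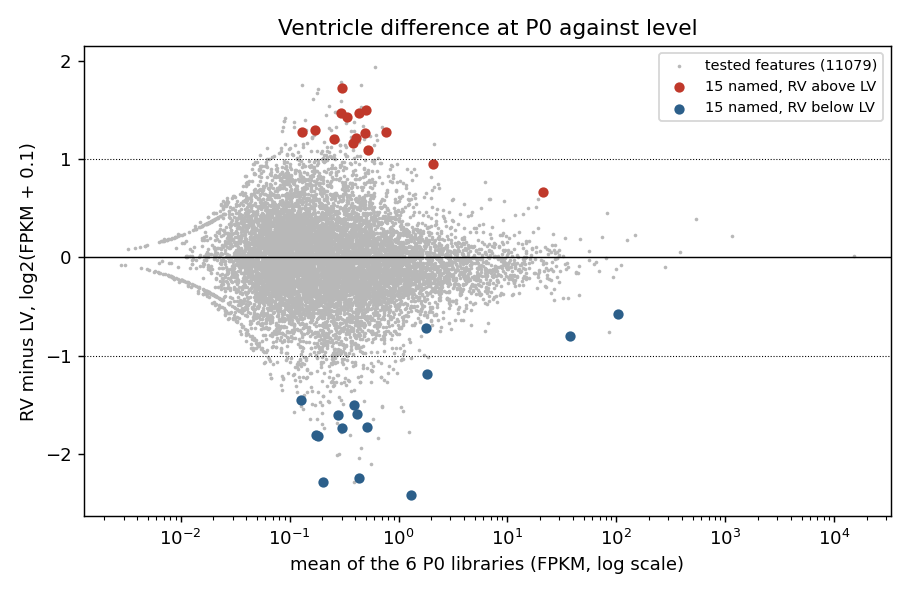
Difference between the ventricles at P0 (RV minus LV, log2(FPKM + 0.1)) against the mean level of the 6 P0 libraries in FPKM on a log axis. Each tested feature is 1 point, and dotted lines mark a 2-fold difference on the log2(FPKM + 0.1) scale. The 30 named features, red where RV was above and blue where RV was below LV, sit at the edge of the cloud at their level, and the cloud narrows above 10 FPKM.

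The most abundant nuclear lncRNAs at birth stood at similar levels in both ventricles. The most abundant of all, TCONS_00065404 on chromosome X at 148192453 to 148192669, measured 401, 408 and 363 FPKM in the RV libraries and 376, 385 and 364 FPKM in the LV libraries, with overlapping groups and a difference of 0.06 ± 0.12 (log2, SE). TCONS_00024059 on chromosome 16 at 90341906 to 90350117 measured 79.3, 71.3 and 88.1 FPKM in RV and 76.7, 74.5 and 88.4 FPKM in LV. Its 95% interval, from -0.19 to 0.18, was the narrowest of the 10 most abundant features. The largest excess in RV among the 10 was that of NONMMUT059444 on chromosome 6 at 145130797 to 145136501, with 77.6, 105 and 96 FPKM in RV and 52.1, 92.3 and 63.3 FPKM in LV. These groups overlap, and the difference of 0.45 ± 0.22 had an adjusted p of 0.922 in the limma fit. Set side by side by replicate number, RV was above LV at each number. A limma fit with a block for that number gave an adjusted p of 0.6. The opposite order, RV below LV at each number, held among the 10 for NONMMUT061937 and NONMMUT0047 (limma adjusted p with the block 0.635 and 0.362). All 10 intervals lay within a 2-fold change, and 1 of them, that of NONMMUT0047 described below, did not hold 0.

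**Figure D2:**
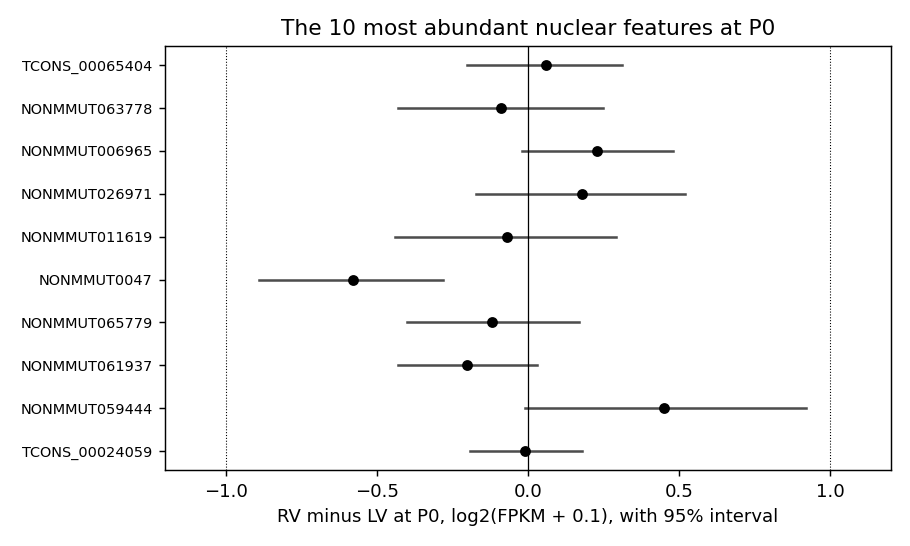
Difference between the ventricles at P0 (RV minus LV, log2(FPKM + 0.1)) for the 10 most abundant nuclear features, most abundant at the top. Points are the limma estimates, bars their 95% intervals and dotted lines a 2-fold difference; the estimates run from -0.58 to 0.45.

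Mitochondrial ribosomal RNA is abundant in heart muscle because the tissue is rich in mitochondria. The summed level of the features at its genes was similar in both ventricles. The mitochondrial chromosome is the one whose features could be set beside annotated genes (GENCODE release M21). The feature at positions 1094 to 3703 spans the large ribosomal RNA gene mt-Rnr2, the tRNA gene mt-Tl1 and 99.6% of mt-Nd1, which encodes a subunit of respiratory complex I. It measured 14500, 16800 and 14400 FPKM in RV and 14200, 16100 and 15000 FPKM in LV, a difference of 0.01 ± 0.11 (log2, SE) with a 95% interval from -0.22 to 0.24. The main row at positions 70 to 1024, the bounds of the small ribosomal RNA gene mt-Rnr1, measured 761, 1600 and 1380 FPKM in RV and 859, 1280 and 975 FPKM in LV, with overlapping groups. Its difference was less closely bounded, 0.22 ± 0.30 (log2, SE) with a 95% interval from -0.43 to 0.86. The summed level of the rows at both rRNA genes was 16458 ± 1690 FPKM in RV and 16132 ± 1176 FPKM in LV (SD, n = 3 each; two-sided exact permutation p = 0.8). Most of this sum is the feature at 1094 to 3703, which also covers mt-Nd1.

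The feature at 15356 to 16294, which begins at the tRNA gene mt-Tp and runs on past it, measured 529, 675 and 609 FPKM in RV and 372, 532 and 493 FPKM in LV. The lowest RV library lay just below the highest LV library, so the groups overlap, and the difference was 0.39 ± 0.17 (log2, SE; limma adjusted p = 0.922). Set side by side by replicate number, RV was above LV at each number (limma adjusted p with a block for that number 0.143). At P3 the difference was 0.37 ± 0.17 and at P7 -0.08 ± 0.19. Replicate 3 was the highest of both ventricles for the feature at 11720 to 14070, with 11.9, 16.4 and 112 FPKM in RV and 20.8, 20.9 and 70.9 FPKM in LV. The same held for that at 15763 to 16188, with 15.6, 17 and 35.2 FPKM in RV and 21.1, 27 and 35.1 FPKM in LV. The feature at 9203 to 9888, which spans mt-Nd3, its flanking tRNA genes and the end of mt-Co3, is the one used to split the libraries. It measured 10.7, 11.3 and 198 FPKM in RV and 23.9, 19.9 and 247 FPKM in LV, so replicate 3 was far above replicates 1 and 2 in both ventricles. By replicate number, RV was below LV at each number (limma adjusted p with a block for that number 0.601).

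The features described next were taken by a rule, 15 per direction with the smallest unadjusted p among those at or above the median level whose RV and LV libraries did not overlap at P0. That median, over the tested features, was a geometric mean of 0.159 FPKM. Without overlap RV was higher for 446 features (4.03%) and lower for 775 (7%), and in the upper part by level for 191 of 5540 (3.45%) and 509 (9.19%). These counts are from values without rescaling between libraries. The summed FPKM outside the mitochondrial chromosome was 11130 ± 387 in RV and 11620 ± 599 in LV (mean and SD, n = 3 each). Since these features were picked for their P0 difference, their P0 values are a description. Their adjusted p in the limma fit ran from 0.716 to 0.881, so none passed the test.

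Of the 15 features above LV in RV, 13 were beyond 2-fold and 2 averaged more than 1 FPKM. The most abundant was TCONS_00027555 on chromosome 18 at 36510393 to 36562635, with 20.2, 29.9 and 29 FPKM in RV and 16.1, 18.5 and 14.7 FPKM in LV. Each RV library lay above each LV library, and the difference was 0.66 ± 0.16 (log2, SE; limma adjusted p = 0.716). At P3 it was 0.15 ± 0.16 and at P7 0.19 ± 0.18. The other one, TCONS_00030095 on chromosome 19 at 58893280 to 58896417, measured 2.16, 3.35 and 2.73 FPKM in RV and 1.61, 1.68 and 0.894 FPKM in LV, a difference of 0.95 ± 0.31 (limma adjusted p = 0.842).

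The smallest p of the 15 was that of NONMMUT012588, a NONCODE transcript without a position in the files. It measured 0.852, 1.54 and 0.995 FPKM in RV and 0.463, 0.374 and 0.361 FPKM in LV, a difference of 1.27 ± 0.31 (log2, SE; limma adjusted p = 0.716). The LV libraries lay close together and the RV libraries spread more widely. NONMMUT058584 on chromosome 6 at 118405225 to 118405719 measured 0.677, 0.604 and 0.776 FPKM in RV and 0.196, 0.264 and 0.109 FPKM in LV. TCONS_00034799 on chromosome 2 at 59449063 to 59449626 had the largest difference of the list, 1.72 ± 0.49, from 0.944, 0.16 and 0.489 FPKM in RV and 0.13, 0 and 0.0962 FPKM in LV. Its lowest RV library was close to its highest LV library, and all of these values rest on few fragments. The remaining 10 features had P0 differences within the same range, from 1.09 to 1.50.

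Of the 15 features below LV in RV, 12 were beyond 2-fold and 5 averaged more than 1 FPKM. NONMMUT0047, without a position in the files, is also among the 10 most abundant nuclear features. It measured 91.4, 97.4 and 60.6 FPKM in RV and 106, 146 and 117 FPKM in LV, a difference of -0.58 ± 0.14 (log2, SE; 95% interval from -0.89 to -0.28; limma adjusted p = 0.716). RV replicate 3 was the lowest library, and in replicates 1 and 2 alone the difference was -0.40. NONMMUT011874, likewise without a position, measured 34.9, 22.7 and 24.8 FPKM in RV and 57.6, 45.6 and 39.9 FPKM in LV, a difference of -0.80 ± 0.23 (limma adjusted p = 0.766). The highest RV library lay below the lowest LV library.

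Among the less abundant of these 15, NONMMUT060990 on chromosome 7 at 50726428 to 50727383 had RV libraries that hardly varied, 1.32, 1.32 and 1.27 FPKM, beside 2.73, 2.33 and 1.7 FPKM in LV. TCONS_00057107 on chromosome 8 at 75082934 to 75083254, a feature of short span, measured 0.611, 1.31 and 1.37 FPKM in RV and 2.43, 1.84 and 3.38 FPKM in LV. NONMMUT030156, without a position, had the largest difference, -2.41 ± 0.69, and also a wide spread in RV. Its values were 1.26, 0 and 0.388 FPKM in RV and 2.06, 2.31 and 1.83 FPKM in LV. TCONS_00037389 on chromosome 3 at 83865630 to 83866611 was listed at 0 in all 3 RV libraries and at 0.207, 0.558 and 0.462 FPKM in LV. No fold is given for it, since 1 ventricle is at 0.

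**Figure D3:**
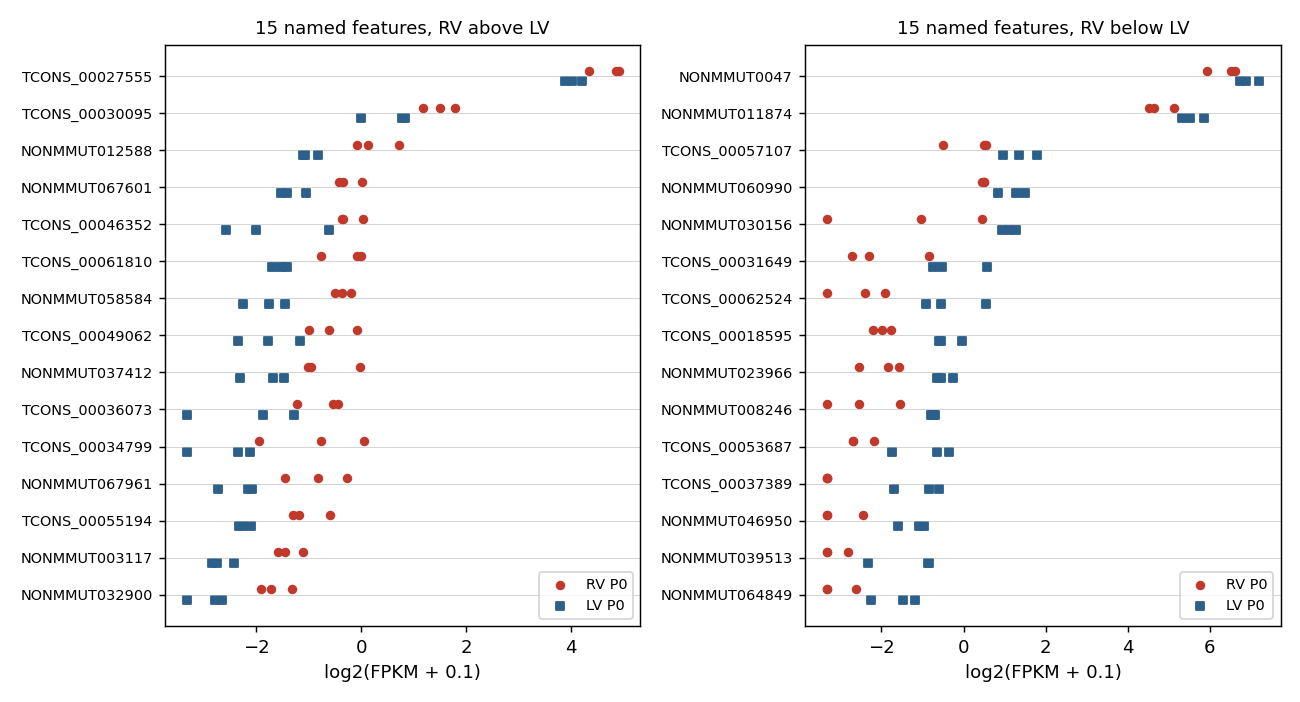
Level at P0 of the 15 named features with RV above LV (left) and the 15 with RV below LV (right), in log2(FPKM + 0.1), 1 point per library, with red circles for the 3 RV and blue squares for the 3 LV libraries. By the naming rule the ventricles do not overlap in any row; points at the left edge of the right panel are libraries listed at 0.

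The positions of the named features lay on 9 chromosomes for the higher list and on 8 for the lower, and 2 and 6 features had no position. Within 50 kb of them lay 18 other tested features for the higher list, of which 11 had the same direction and 0 also an unadjusted p under 0.05. For the lower list the counts were 31, 19 and 0. Over all tested features, 43.6% were higher and 55.6% lower in RV, and 2.22% and 3.08% had such a p.

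The values at P3 and P7 were set beside those at P0. The later libraries did not enter the P0 differences that chose the features, but they entered the level filter and the estimate of the spread. Of the 15 features above LV in RV at P0, 10 were also higher in RV at P3 and 4 at P7, where 50.1% and 49.3% of all tested features were higher. Of the 15 below LV, 7 were lower at P3 and 7 at P7, where 49.4% and 48.7% of all features were lower. The median differences of the higher list were 0.15 at P3 and -0.17 at P7 on the log2 scale, and those of the lower list 0.00 at both ages. None of the 30 was called at a later age in its P0 direction.

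**Figure D4:**
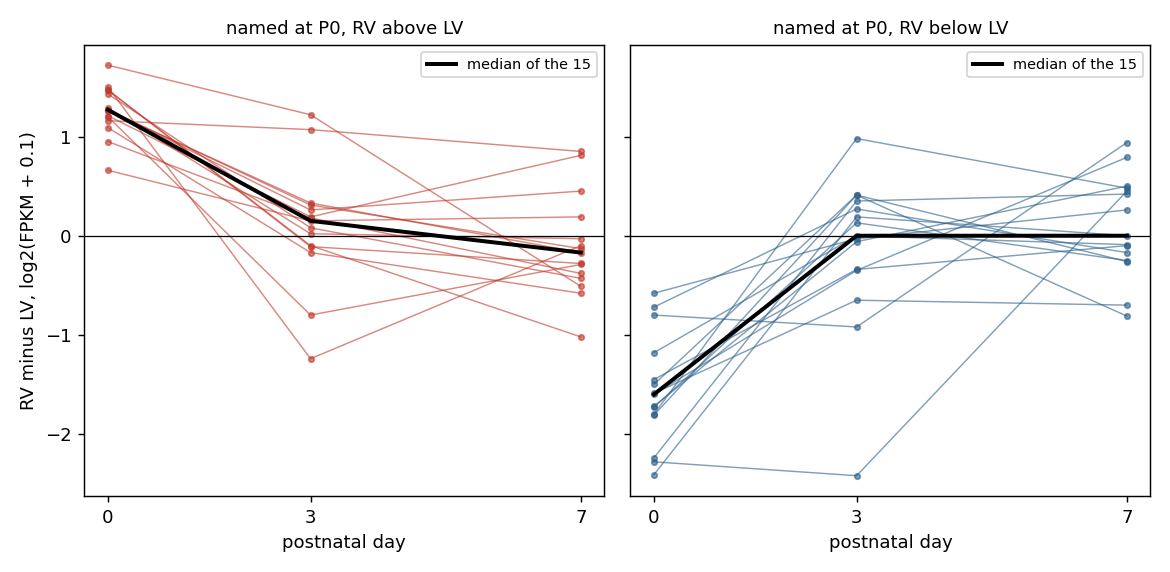
Difference between the ventricles (RV minus LV, log2(FPKM + 0.1)) at postnatal days 0, 3 and 7 for the 15 features named for RV above LV at P0 (left) and the 15 named for RV below LV (right), 1 thin line per feature and a black line for the median. Both medians lie near 0 at days 3 and 7; the values at day 0 chose the features.

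NONMMUT037412, without a position in the files, is the 1 of the 30 named features whose ventricles did not overlap, in the P0 direction, at both later ages. It measured 0.396, 0.887 and 0.418 FPKM in RV and 0.261, 0.103 and 0.213 FPKM in LV at P0. At P3 the values were 1.66, 0.959 and 1.58 FPKM in RV and 0.592, 0.504 and 0.709 FPKM in LV, and at P7 3.26 and 2.23 FPKM in RV and 1.57, 1.29 and 1.49 FPKM in LV. No RV library fell within the range of LV at any age, and the level was higher at each later age in both ventricles. The later difference, over P3 and P7, was 0.96 on the log2 scale (limma adjusted p = 0.279).

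NONMMUT011874 took the opposite sign at P7. RV was below LV at P0 and at P3, with 7.32, 11.9 and 6.13 FPKM in RV and 16.5, 14.9 and 15.2 FPKM in LV at P3, and above LV at P7, with 4.61 and 2.84 FPKM in RV and 2.19, 1.49 and 1.91 FPKM in LV. The log2 differences were -0.80 ± 0.23, -0.92 ± 0.23 and 0.94 ± 0.26 at the 3 ages (SE), with limma adjusted p of 0.766, 0.489 and 0.837. The test of P0 against the later mean gave -0.81 ± 0.29 (limma adjusted p = 0.921), and it averages over the sign change between P3 and P7.

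Whether the ventricle difference at P0 was itself unlike the later one was tested over all features. Of 11079 features, 0 (0%) had an adjusted p under 0.05 for the P0 difference minus the mean of the P3 and P7 differences, and 503 (4.54%) had an unadjusted p under 0.05. The smallest adjusted p in the limma fit was 0.799. Among the features at or above the median level with the smallest p for this contrast was NONMMUT066471 on chromosome 8 at 88254715 to 88288994. It measured 2.29, 3.73 and 2.96 FPKM in RV and 1.64, 2.89 and 2.39 FPKM in LV at P0, with overlap. At P3 it measured 3.99, 2.37 and 2.78 FPKM in RV and 6.45, 5.52 and 5.35 FPKM in LV, so RV lay below LV there without overlap, and the contrast of P0 with later was 1.09 ± 0.28 (limma adjusted p = 0.799).

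Another of these, TCONS_00021468 on chromosome 15 at 84747841 to 84748589, measured 0.973, 0.961 and 0.809 FPKM in RV and 0.195, 0.394 and 0.435 FPKM in LV at P0. At P7 it measured 0.0739 and 0.0358 FPKM in RV and 0.525, 0.683 and 0.55 FPKM in LV, the reverse order without overlap (contrast of P0 with later 2.26 ± 0.56 SE, limma adjusted p = 0.799). With the opposite sign, TCONS_00052682 on chromosome 7 at 56112737 to 56119044 was listed at 0 in the 3 RV libraries of P0 and at 0.119, 0.12 and 0.166 FPKM in LV. At P3 it measured 0.753, 0.444 and 0.367 FPKM in RV and 0.293, 0.193 and 0.205 FPKM in LV. The values of these TCONS features are all under 1 FPKM, where depth limits them. NONMMUT0047 is also in this list, with a contrast of -0.70 ± 0.18 (limma adjusted p = 0.799).

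The features that passed the test at a later age, 1 at P3 and another at P7, did not pass it at P0. NONMMUT054852 on chromosome 5 at 136520614 to 136522357, the feature called at P3 and the only one called over P3 and P7 together (log2 difference 1.76, limma adjusted p = 0.00408), measured 11.8, 6.89 and 14.2 FPKM in RV and 9.64, 4.19 and 8.58 FPKM in LV at P0. The ventricles overlap at P0, with the lowest RV library below 2 of the LV libraries, and the difference was 0.57 ± 0.31 (SE; 95% interval from -0.07 to 1.22; limma adjusted p = 0.952). Set side by side by replicate number, RV was above LV at each number at P0 (limma adjusted p with a block for that number 0.623). At P3 the values were 13.1, 8.59 and 12.3 FPKM in RV and 2.53, 3.16 and 2.63 FPKM in LV, so the level in RV was close to that at P0 and the level in LV lower. The P0 difference minus the later one was -1.19 ± 0.39 (limma adjusted p = 0.799), which did not pass the test. The feature called at P7, TCONS_00022229 on chromosome 16 at 24097633 to 24098149, was listed at 0 in all 6 libraries of P0. At P7 it was listed at 0 in both RV libraries and at 0.544, 0.349 and 0.85 FPKM in LV (limma adjusted p = 0.0155).

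TCONS_00049214 on chromosome 6 at 87387308 to 87387671, singled out in earlier results for its loss with age, showed no ventricle order at birth. It measured 27.6, 17.2 and 36.4 FPKM in RV and 36.1, 17.6 and 28.5 FPKM in LV, a difference of -0.02 ± 0.35 (log2, SE; limma adjusted p = 1). Replicate 2 was the lowest of both ventricles. At P3 it measured 2.26, 3.59 and 3.71 FPKM in RV and 0.878, 1.01 and 0.537 FPKM in LV, with RV above LV without overlap (limma adjusted p = 0.107). NONMMUT020952 on chromosome 14 at 55590746 to 55591524, another feature singled out for its loss with age, measured 19, 27.8 and 37.1 FPKM in RV and 33.4, 33.4 and 41.6 FPKM in LV, with overlap and a 95% interval from -1.48 to 0.65. By replicate number, RV was below LV at each number (limma adjusted p with a block for that number 0.837).

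**Figure D5:**
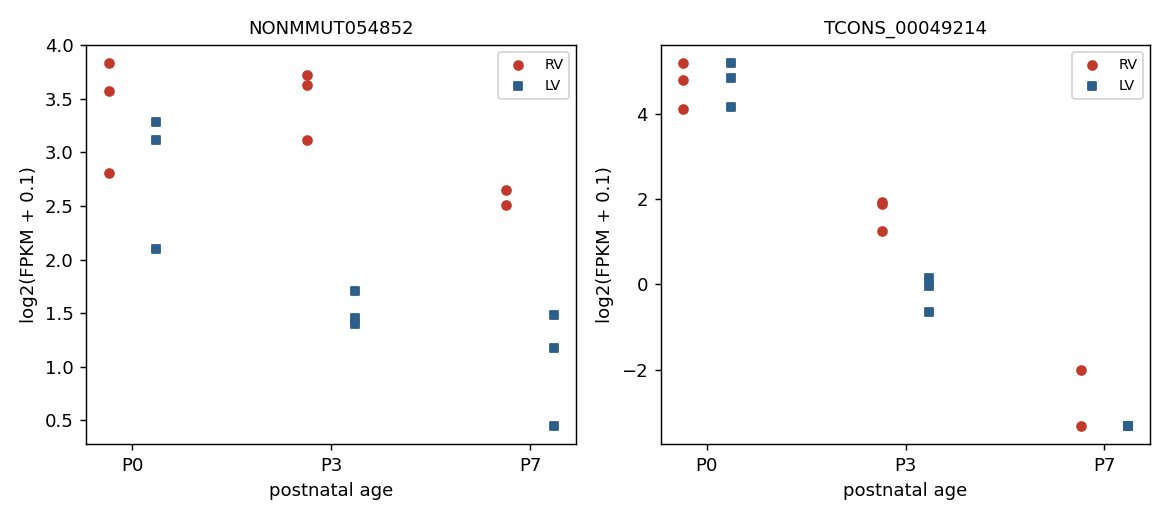
Level of NONMMUT054852 (left) and TCONS_00049214 (right) in log2(FPKM + 0.1) at P0, P3 and P7, 1 point per library, with red circles for RV and blue squares for LV. The ventricles overlap at P0 in both panels and do not overlap at P3; the lowest points of the right panel at P7 are libraries listed at 0.

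No feature was listed at 0 throughout one ventricle and at 0.5 FPKM or more throughout the other at P0. Of all 23940 rows, 0 were listed at 0 in every LV library with at least 0.5 FPKM in every RV library, and 0 the other way round. With a minimum of 0.2 FPKM, 0 rows were seen in RV alone and 1 in LV alone, which is TCONS_00037389. With 0.1 FPKM the counts were 1 and 3.

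By class, over all tested features, the assembled transcripts had a lower median difference than the NONCODE transcripts. The gap in medians was small once low features were left out, but more TCONS features with a small p were still lower than higher. The 1672 TCONS features had a median difference of -0.10 (RV minus LV, log2), with an unadjusted p under 0.05 for 32 higher and 102 lower in RV (8.01%). The 9407 NONCODE features had a median of -0.04, with 214 higher and 239 lower (4.82%), beside -0.05, 246 and 341 (5.3%) for all features. Among the 623 TCONS features that span under 1 kb, the median was -0.12, with 14 higher and 58 lower (11.6%). This is a description without a test. Without LV replicate 3 the TCONS features had a median of -0.09, with 41 higher and 89 lower, and the NONCODE features a median of -0.01. Under the filter of 1 FPKM the medians were close, -0.114 for TCONS and -0.102 for NONCODE. With that filter 9 TCONS features were higher and 27 lower at an unadjusted p under 0.05, beside 32 and 68 of all features. After median scaling the medians were -0.0766 for TCONS and -0.0168 for NONCODE. The median of nuclear features also varied with level. It was 0 under 0.1 FPKM, -0.07 from 0.1 to 1, -0.11 from 1 to 10 and -0.07 from 10 FPKM up. Whether level accounts for the class gap was not tested. By chromosome, the medians of the 19 autosomes and the X lay between -0.08 and 0.00.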

How the data were processed

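Per the submitters' processing notes, reads were aligned with STAR 2.4.0j and the build is mm10. Counting tool, annotation and normalization: not given in the sources used here. Each library has 1 table deposited by the authors, with 23940 rows of ID, position and a value taken to be FPKM from the steps of its low values. On 9 nuclear chromosomes positions run past the last gene of GRCm38, so they are taken to be mm9, and none was converted. No ID (0) was found in RefSeq's gene table, so lists by symbol could not be used. Rows sharing a position (5055) can share reads.

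Tests used limma 3.58.1 (R 4.3.3) on the scale log2(FPKM + 0.1), which understates changes of low features. All 17 libraries entered 1 fit with a mean for each group, robust moderation and a variance trend, over features that reached 0.1 FPKM in 2 or more libraries. Called means a Benjamini-Hochberg adjusted p (two-sided) under 0.05. Named were up to 15 features per direction by smallest p (at or above the median level, no overlap at P0), up to 5 per direction for P0 against later ages, the 10 most abundant nuclear ones, the mitochondrial ones and 5 singled out earlier. Members, lists and tests were chosen with earlier results of these data known. Of the 20 alternatives, those on the library split (mitochondrial feature at 9203 to 9888, over or under 50 FPKM) were chosen after seeing the data.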

Additional observations from a re-analysis of the deposited data

How the results depend on the processing

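The count of features called at P0, 0, was also 0 under every alternative with all P0 libraries except the one without a filter on low values. Without that filter 1 feature was called, listed at 0 in the 3 RV libraries and at 0.0481, 0.0648 and 0.0536 FPKM in LV. Leaving out 1 library at a time gave 0 to 2 calls: 1 without LV replicate 3 (log2 difference -2.26, limma adjusted p = 0.00337) and 2 without RV replicate 2 (2.07 and 2.42, limma adjusted p = 0.00966 for both). These 3 features are listed at 0 in all libraries kept of 1 ventricle, and the library left out was itself at 0. With a pseudocount of 1 the smallest adjusted p was 0.0673, and with 0.01 it was 0.189. The equal replicate numbers were checked for pairing: deviations from the group mean correlated by 0.098, 0.072 and 0.114 for equal numbers, not over 0.1 in every pair, so the numbers were not taken to pair the samples. Each library correlated best with its own number, a hint from the data. With a block for replicate number within age, 0 features were called at P0, 810 (7.31%) had an unadjusted p under 0.05 and the smallest adjusted p was 0.143, that of the mitochondrial feature at 15356 to 16294. In a blocked fit of the P0 libraries alone, 0 were called and 823 (7.43%) had an unadjusted p under 0.05. For the contrast of P0 with later ages, the block called 1 feature and leaving out 1 library 0 to 1 (1 without LV replicate 3). Paired exact permutation tests gave p = 1 for the RV minus LV difference of 75.67 rows at 0 and p = 0.75 for that of 326.7 FPKM in mitochondrial rRNA, where 0.25 is the smallest possible. Leaving out 1 library, these differences ran from -243 to 426.5 rows and from -635.7 to 948.3 FPKM. Of the 30 named features, 17 kept their direction at P3 and 11 at P7; under a filter of 1 FPKM, 10 of them were tested and 7 and 4 did. The causes were not tested. With the library set as a term 0 features were called and 649 (5.86%) had an unadjusted p under 0.05, and in the low set alone 0 and 500 (5.11%). Depth limits all values under about 1 FPKM.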

Other observations

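A few features kept the ventricles apart at all 3 ages, although none of them was called at P0. They were chosen after their values were seen. Groups did not overlap at P0, P3 and P7, with RV above LV each time, for 7 rows (0.0632%), and with RV below LV for another 7 (0.0632%), which are 5 distinct positions. Of the 7 higher ones, NONMMUT037412 alone was at or above the median level, and of the 5 lower ones all were. One of the 5 was NONMMUT058534 on chromosome 6 at 116574940 to 116576466, with 5.72, 5.18 and 5.36 FPKM in RV and 7.04, 6.53 and 7.14 FPKM in LV at P0. At P3 the gap was very small, with the highest RV library at 5.64 FPKM and the lowest LV library at 5.66 FPKM. Its log2 differences were -0.34 ± 0.15, -0.13 ± 0.15 and -0.51 ± 0.16 at P0, P3 and P7 (SE), and its limma adjusted p was 0.922 at P0 and 0.568 over P3 and P7. NONMMUT014884 on chromosome 12 at 82486241 to 82633864, which shares its position with other rows, measured 1.13, 1.82 and 1.11 FPKM in RV and 3.03, 1.99 and 1.92 FPKM in LV at P0. Its log2 differences were -0.73, -0.58 and -0.89 at the 3 ages. TCONS_00059026 on chromosome 8 at 94849932 to 94880019, which shares its position with other rows, measured 4.2, 3.56 and 4.31 FPKM in RV and 4.78, 4.92 and 5.88 FPKM in LV at P0.

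NONMMUT062940, without a position in the files, was the feature called with the replicate block for P0 against later ages, also picked after its values were seen. At P0 it measured 49.1, 35.9 and 39.6 FPKM in RV and 54, 42.1 and 43 FPKM in LV. At P3 it measured 187, 265 and 229 FPKM in RV and 140, 181 and 155 FPKM in LV, and at P7 316 and 231 FPKM in RV and 196, 150 and 197 FPKM in LV. The ventricles overlapped at P0, with RV below LV at each replicate number (limma adjusted p with the block 0.635). RV was above LV without overlap at P3 and at P7. Without the block its contrast of P0 with later was -0.71 ± 0.20 (SE; limma adjusted p = 0.799).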
